A study of Mus musculus with 12 samples.

Results

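The genes described here are 10 feedback and target genes of fibroblast growth factor (FGF) signalling: the Sprouty genes Spry1, Spry2 and Spry4, the Sprouty-related genes Spred1 and Spred2, the phosphatase genes Dusp4 and Dusp6, and the ETS factor genes Etv1, Etv4 and Etv5. They were chosen by name, as readouts of the path from the FGF receptor to the kinase ERK, from the 17097 genes that the array's probe sets name. When several probe sets named a gene and no other, the one with the highest mean stood for it, and the rest served as a check. Probe sets that also name another gene, as some for Etv5 do, served as a check alone. Of the 10 genes, 9 exceeded the filter on low signals, as did 11073 genes in all. The filter asks for a log2 signal above 5.101, which is the median over the whole table, on 2 arrays or more. Etv4 did not. The 9 genes lay above the filter on all 12 arrays, except Dusp4, which lay below it on bright SHAM replicate 2.

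The arrays measured RNA of 2000 sorted lung fibroblasts per sample, from PDGFRa-GFP mice, in which GFP reports the Pdgfra gene. The bright and the dim GFP gate were each sampled in 3 kinds of animal, 5 days after surgery. PNX-dnFGFR animals had part of the lung removed and express a dominant-negative FGF receptor 2, PNX animals had the same operation and are not labelled as carrying that receptor, and SHAM animals had a sham operation. The 6 groups have 2 arrays apiece, which the labels call biological replicates. All animals carry the Pdgfra reporter. The sources used here do not give the promoter that drives the dominant-negative receptor, the cells that make it, the animals' age, or whether a sample is 1 animal or a pool. The p-values below therefore measure the spread between these samples.

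FGF receptors signal through the adaptor FRS2, the GTPase RAS and the RAF and MEK kinases to ERK. Active ERK induces genes that dampen the same path: Sprouty and Spred proteins act at or above RAF, and the phosphatases DUSP4 and DUSP6 remove phosphate from ERK itself. ETV1, ETV4 and ETV5 form the PEA3 group of ETS transcription factors, which act downstream of FGF receptors in many tissues, the lung bud among them. Most of these genes also respond to other receptors that activate ERK, PDGF receptors included.

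Promoter windows show what surrounds the start sites of these genes. RefSeq windows on GRCm38.p6, from 250 bases before to 50 bases after a start, were found for 7 of the 10 genes (9 windows). No window of Spry4, Dusp4 or Etv4 was used here. Of the windows, 3 are printed because their genes stand for patterns below: Spry1, lower in bright cells, and Dusp6 and Etv1, whose levels correlated. That correlation did not pass after adjustment for the number of pairs, as given below. All 3 windows lie on the plus strand and run 5′ to 3′, and capitals mark a match to a searched motif. The first is the Spry1 window at chr3:37639697-37639996, the second the Dusp6 window at chr10:99262981-99263280, and the third the first of 2 Etv1 windows, at chr12:38779832-38780131.
Spry1: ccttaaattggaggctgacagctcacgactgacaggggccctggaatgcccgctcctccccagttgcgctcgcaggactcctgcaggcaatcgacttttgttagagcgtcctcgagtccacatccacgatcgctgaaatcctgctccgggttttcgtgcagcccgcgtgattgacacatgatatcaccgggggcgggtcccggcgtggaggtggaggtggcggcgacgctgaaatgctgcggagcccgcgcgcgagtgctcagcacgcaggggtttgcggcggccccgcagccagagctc
Dusp6: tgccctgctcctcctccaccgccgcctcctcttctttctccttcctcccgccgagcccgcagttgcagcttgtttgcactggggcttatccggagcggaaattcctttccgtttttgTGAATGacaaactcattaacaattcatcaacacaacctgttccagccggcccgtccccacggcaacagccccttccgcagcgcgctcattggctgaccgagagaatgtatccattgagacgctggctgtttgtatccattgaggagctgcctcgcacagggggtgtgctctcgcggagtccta
Etv1: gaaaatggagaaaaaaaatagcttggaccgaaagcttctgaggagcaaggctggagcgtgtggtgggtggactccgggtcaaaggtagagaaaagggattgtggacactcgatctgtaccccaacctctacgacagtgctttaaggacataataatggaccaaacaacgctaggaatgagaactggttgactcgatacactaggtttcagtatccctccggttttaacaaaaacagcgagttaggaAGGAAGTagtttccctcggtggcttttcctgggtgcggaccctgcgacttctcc
The motifs, read on both strands and chosen after the windows had been read, were AGGAAGT (a PEA3 site), TGAATG (the core bound by the repressor Capicua, which ERK signalling relieves) and TGANTCA (an AP-1 site). No match in the printed windows overlaps a match to another motif. AGGAAGT was found for 3 of the 7 genes, Spred2, Etv1 and Etv5, against 10.7% of the 27025 genes with a window in the table. TGAATG was found for 2, Dusp6 with 1 match and Etv5 with 3, against 14.5% of those genes. TGANTCA was found for 0 of the 7, against 8.97%. By window, the shares are 9.35%, 12.7% and 7.81% of 32851. A match describes letters, and the absence of one says only that these letters are not in this window.

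Array medians lay between log2 5.06 and 5.13, and replicate arrays correlated at r = 0.953 to 0.976 over the genes, which are no independent replicates. The first principal component, with 66.1% of the variance, parted bright from dim arrays. On the second, with 8.9%, the bright PNX replicates 1 and 2 were far apart, at -10.5 and 20.7, beside bright PNX-dnFGFR at -24.2 and -17.1 and bright SHAM at 15.1 and 34.2. Of 11 fibroblast markers, Col1a1 (11.82 to 12.46), Col3a1 (12.03 to 12.57) and Fn1 (11.62 to 12.42) were high on every array. Others parted the gates: Dcn lay at 11.97 to 12.21 on bright and 5.72 to 8.48 on dim arrays, Pdgfrb at 8.88 to 9.3 and 5.51 to 6.35, and Lum at 8.21 to 8.93 on bright arrays but below the filter on all dim arrays, at 2.34 to 3.06. Tcf21 went the other way, at 6.99 to 8.69 on bright and 10.22 to 10.8 on dim arrays. Pdgfra, the gene behind the gates, went against the labels: its signal was 4.84 to 5.54 on the arrays labelled bright and 6.66 to 7.13 on those labelled dim. Bright and dim below are the labels. Other cell types also left signal, with the epithelial gene Sftpc at 11.36 to 12.43 and the macrophage gene Lyz2 at 9.77 to 11.31.

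Bright cells had less of several feedback genes than dim cells. As the mean over the 3 operations, Spry4, Spry1, Dusp6 and Dusp4 were lower in bright cells, by 1.94-fold to 2.56-fold, and the 5 other genes tested did not pass. The call was limma's moderated test with an adjusted p below 0.05 over all genes. That makes 4 of 9 genes lower and 0 higher, while 19.3% of all genes tested were lower and 28.5% higher. The median log2 difference was -0.48 over the 9 genes and 0.05 over all genes. In bulk RNA of sorted cells, fewer cells that express a gene and less RNA per cell cannot be told apart.

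**Figure D1:**
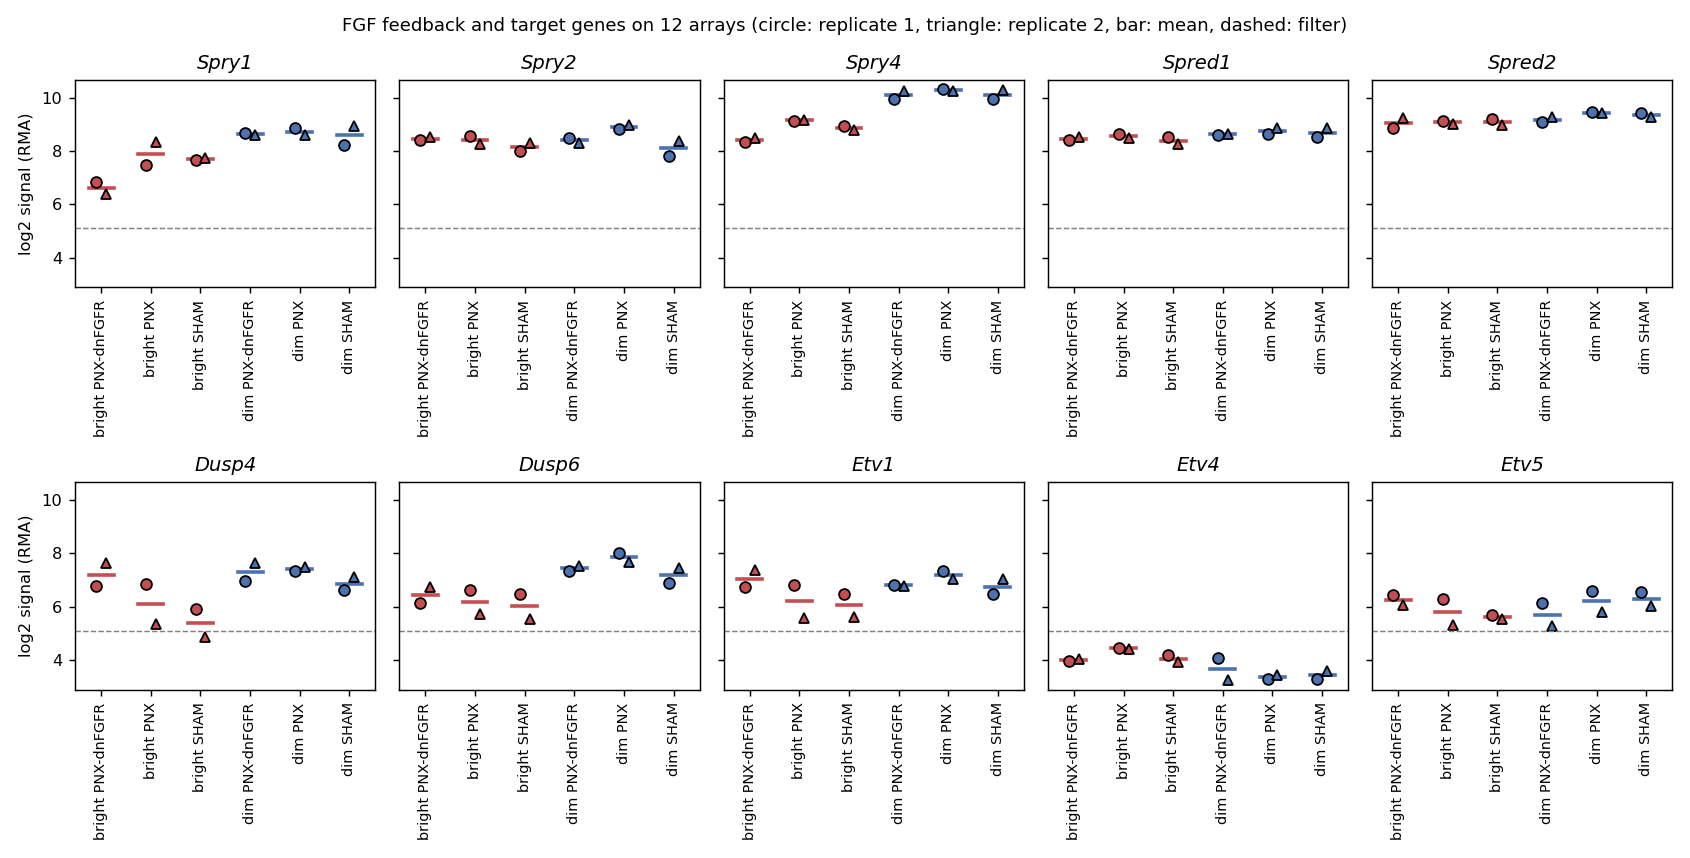
Log2 signal of each gene (vertical axis) on the 12 arrays, by group (horizontal axis, bright groups in red, dim in blue). Circles are replicate 1, triangles replicate 2, bars group means and the dashed line the filter at 5.101. Spry4 on the bright arrays (8.33 to 9.18) lies under all its dim values (9.94 to 10.32), and Etv4 stays under the filter on every array.

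Spry4 parted the gates in each of the 3 operations. SPRY4 is a Sprouty protein that restrains RAS and RAF activation. On bright arrays its log2 signal was 8.33 and 8.48 in PNX-dnFGFR, 9.13 and 9.18 in PNX, and 8.93 and 8.80 in SHAM. On dim arrays it was 9.94 and 10.24 in PNX-dnFGFR, 10.32 and 10.27 in PNX, and 9.94 and 10.28 in SHAM. Every bright array lay below every dim array. The mean difference was -1.36 log2 (± 0.09 SE, n = 6 arrays per gate, 2.56-fold, adjusted p = 3.9e-06). It was called within each operation, at -1.69 in PNX-dnFGFR (adjusted p = 9.1e-05), -1.15 in PNX (0.0012) and -1.24 in SHAM (0.00081), each ± 0.16 SE with 2 arrays per group. Of its 3 other probe sets, 2 were tested and were lower too, at -1.57 (adjusted p = 3.1e-06) and -1.45 (4.8e-05).

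Spry1 followed, with its lowest values in bright cells of the dominant-negative animals. SPRY1, like SPRY4, inhibits signalling below receptor tyrosine kinases. Its log2 signal on bright arrays was 6.82 and 6.37 in PNX-dnFGFR, 7.47 and 8.32 in PNX, and 7.66 and 7.73 in SHAM. Dim arrays gave 8.68 and 8.59 in PNX-dnFGFR, 8.87 and 8.59 in PNX, and 8.24 and 8.94 in SHAM. The gates did not overlap within any operation, though bright PNX replicate 2 lay just above dim SHAM replicate 1. The mean difference was -1.26 ± 0.18 (2.39-fold, adjusted p = 0.00033). Within PNX-dnFGFR it was -2.04 ± 0.30 (4.11-fold, adjusted p = 0.00097), whereas -0.84 in PNX (0.091) and -0.89 in SHAM (0.073) did not pass. The array has 1 probe set for Spry1.

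Spry2 did not share this pattern. It encodes a Sprouty protein that also binds the ubiquitin ligase CBL. Its 6 bright arrays ran from 8.01 to 8.58 with a median of 8.36, and its 6 dim arrays from 7.83 to 8.96 with a median of 8.44, so the gates overlapped widely. The mean difference was -0.12 ± 0.12 (95% interval -0.39 to 0.15, adjusted p = 0.44). In PNX alone both bright arrays, at 8.58 and 8.27, lay below both dim arrays, at 8.84 and 8.96, and the difference of -0.48 did not pass (adjusted p = 0.15). With the mean of both its probe sets it passed there (-0.53, adjusted p = 0.045).

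The Spred genes differed little between gates. SPRED1 and SPRED2 bring the RAS inactivator neurofibromin to the membrane. Spred1 lay at 8.25 to 8.63 on bright arrays (median 8.49) and 8.52 to 8.87 on dim arrays (median 8.65). Spred2 lay at 8.86 to 9.25 on bright arrays (median 9.07) and 9.07 to 9.47 on dim arrays (median 9.35). Both ranges overlap, by a few arrays at their edges. The mean differences were -0.22 ± 0.10 for Spred1 (adjusted p = 0.083) and -0.26 ± 0.10 for Spred2 (adjusted p = 0.053). Spred2 stood at the threshold: it passed with the mean of its probe sets (-0.32, adjusted p = 0.012) and with a variance trend (0.033). Of the 4 other probe sets of Spred1, 2 had positive values (0.04 and 0.22), so its direction depends on the probe set.

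Dusp6 was lower in bright cells as well. It encodes an ERK-specific cytoplasmic phosphatase and is a common readout of FGF activity. Its log2 signal on bright arrays was 6.14 and 6.72 in PNX-dnFGFR, 6.61 and 5.72 in PNX, and 6.47 and 5.55 in SHAM. On dim arrays it was 7.35 and 7.52 in PNX-dnFGFR, 8.03 and 7.66 in PNX, and 6.90 and 7.45 in SHAM. All 6 bright values lay below all 6 dim values. The mean difference was -1.28 ± 0.22 (2.43-fold, adjusted p = 0.0011). Within PNX it was -1.68 ± 0.38 (adjusted p = 0.014), a call lost without dim PNX replicate 1 (-1.5, adjusted p = 0.086) or bright PNX replicate 2 (-1.24, 0.075). In PNX-dnFGFR it was -1.01 (0.068) and in SHAM -1.16 (0.062), neither of which passed.

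Dusp4, whose product is a nuclear phosphatase for ERK, varied more among bright arrays than any other of these genes. Bright arrays gave 6.76 and 7.62 in PNX-dnFGFR, 6.85 and 5.35 in PNX, and 5.90 and 4.88 in SHAM. Dim arrays gave 6.95 and 7.63 in PNX-dnFGFR, 7.34 and 7.47 in PNX, and 6.61 and 7.10 in SHAM. Bright cells lay below dim cells in PNX and in SHAM, and overlapped with them in PNX-dnFGFR. The mean difference was -0.96 ± 0.30 (1.94-fold, adjusted p = 0.025). That call was lost when any 1 of 5 arrays was left out: in bright cells PNX-dnFGFR replicate 1 (-0.81, adjusted p = 0.070) or SHAM replicate 2 (-0.79, 0.064), and in dim cells replicate 2 of PNX-dnFGFR (-0.84, 0.067), of PNX (-0.94, 0.055) or of SHAM (-0.87, 0.064). By operation the differences were -0.09 in PNX-dnFGFR (adjusted p = 0.91), -1.30 in PNX (0.12) and -1.47 in SHAM (0.080), each ± 0.52. None of these 3 passed.

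The ETS genes of the PEA3 group were not called between gates. Etv1 gave 6.72 and 7.36 in bright PNX-dnFGFR, 6.82 and 5.58 in bright PNX, and 6.48 and 5.61 in bright SHAM. Dim arrays gave 6.80 and 6.79 in PNX-dnFGFR, 7.33 and 7.03 in PNX, and 6.47 and 7.02 in SHAM. The bright arrays spread over a wider range than the dim ones and overlapped with them. The mean difference was -0.48 ± 0.24 (95% interval -1.03 to 0.07, adjusted p = 0.14). It passed without bright PNX replicate 1 (-0.68, adjusted p = 0.026) and by 1 other probe set (-0.66, adjusted p = 0.044).

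Etv5 lay at 5.31 to 6.43 on bright arrays (median 5.87) and 5.26 to 6.6 on dim arrays (median 6.08), nearly the same span. Its mean difference was -0.18 ± 0.23 (95% interval -0.70 to 0.35, adjusted p = 0.56). By operation it was 0.55 in PNX-dnFGFR, -0.40 in PNX and -0.68 in SHAM, each ± 0.40, and none of these passed (adjusted p = 0.32, 0.55 and 0.29). The 2 other Etv5 probe sets have higher signals but also name Scpep1. In SHAM they gave -0.72, which passed (adjusted p = 0.033), and -0.53 (0.12). Etv4 lay at 3.92 to 4.46 on bright arrays and 3.24 to 4.09 on dim arrays. All of these signals lie under the filter, and none is shown to exceed background, so no difference was tested.

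**Figure D2:**
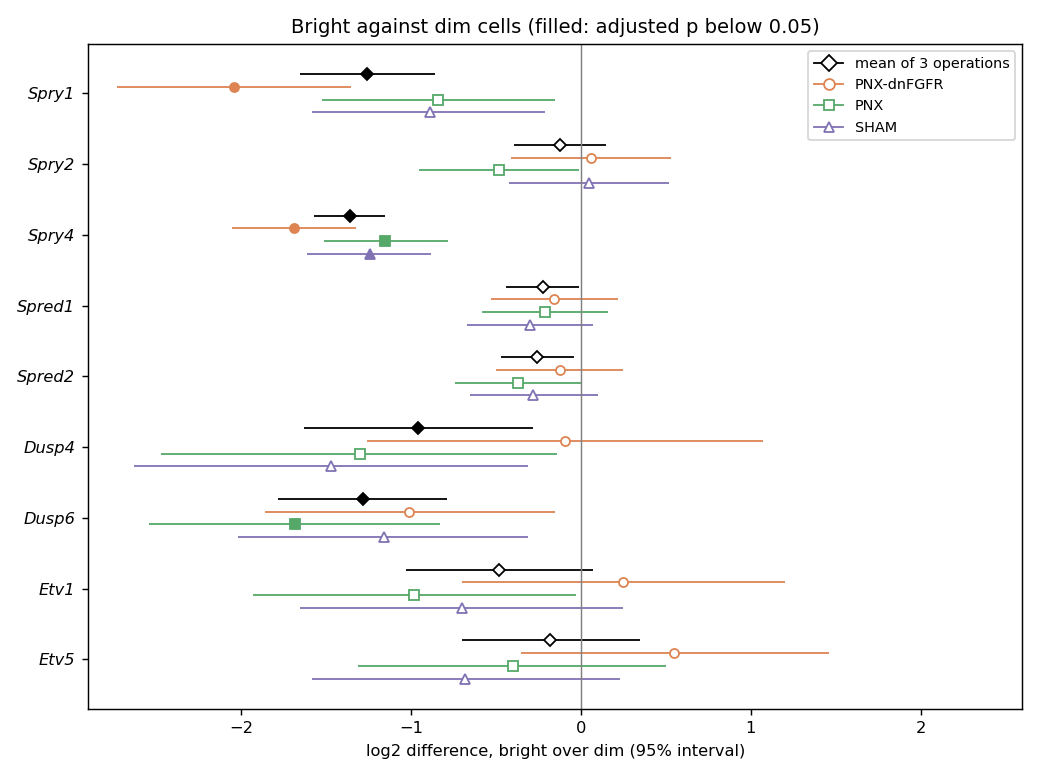
Log2 difference of bright over dim cells (horizontal axis) for the 9 genes tested, as the mean of the 3 operations and within each, with 95% intervals. Filled symbols have an adjusted p below 0.05. Spry4 is filled in all 4 comparisons, from -1.69 to -1.15, and the Dusp4, Etv1 and Etv5 intervals within single operations are the widest.

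Within single operations fewer calls were made, as they were over all genes. In PNX-dnFGFR, 2 of 9 genes were lower (Spry1 and Spry4, against 13.5% of all genes), in PNX 2 (Spry4 and Dusp6, against 7.07%) and in SHAM 1 (Spry4, against 7.53%). No gene of the 9 was higher in any of them, against 21.0%, 11.4% and 11.5% of all genes in that order. The number of genes whose bright arrays both lay below both dim arrays was 4 in PNX-dnFGFR, 8 in PNX and 6 in SHAM, against 31.1%, 25.9% and 26.3% of all genes in that order. Whether the operations differed was tested directly and is given next.

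None of the genes was called between operations. In bright cells, PNX-dnFGFR was set against PNX to ask what the dominant-negative receptor changes during regrowth. By limma 0 of 9 genes passed and 2 had an unadjusted p below 0.05, while 0.00903% of all genes passed and 12.6% had such a p. Spry1 had -1.30 ± 0.30 (95% interval -1.99 to -0.61, 2.46-fold, unadjusted p = 0.0019, adjusted p = 0.14), with both PNX-dnFGFR arrays, at 6.82 and 6.37, below both PNX arrays, at 7.47 and 8.32. Spry4 had -0.75 ± 0.16 (1.68-fold, unadjusted p = 0.0012, adjusted p = 0.12), again without overlap. Its other tested probe sets gave -0.94 (adjusted p = 0.098) and -0.48 (0.51). By the latter the arrays overlapped, at 6.36 and 6.49 in PNX-dnFGFR and 6.45 and 7.36 in PNX. Spry1 and Spry4 are the 2 genes of the 9 whose arrays did not overlap there in the lower direction, against 22.3% of all genes. Without bright PNX replicate 1, Spry1 passed at -1.72 (adjusted p = 0.026), and so did 424 of 11033 genes, against 1 of 11073 with all arrays.

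The phosphatase and ETS genes tested had positive values in that comparison. Dusp4 had 1.09 ± 0.52 (adjusted p = 0.43), Etv1 0.84 ± 0.42 (0.47), Etv5 0.44 ± 0.40 (0.74) and Dusp6 0.26 ± 0.38 (0.85). The PNX-dnFGFR arrays overlapped with the PNX arrays for all 4 of these genes. Spry2 had 0.04 (95% interval -0.43 to 0.51), Spred1 -0.09 (-0.46 to 0.29) and Spred2 -0.02 (-0.40 to 0.36). For these 3 genes the intervals leave room for differences from -0.46 to 0.51 log2.

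**Figure D3:**
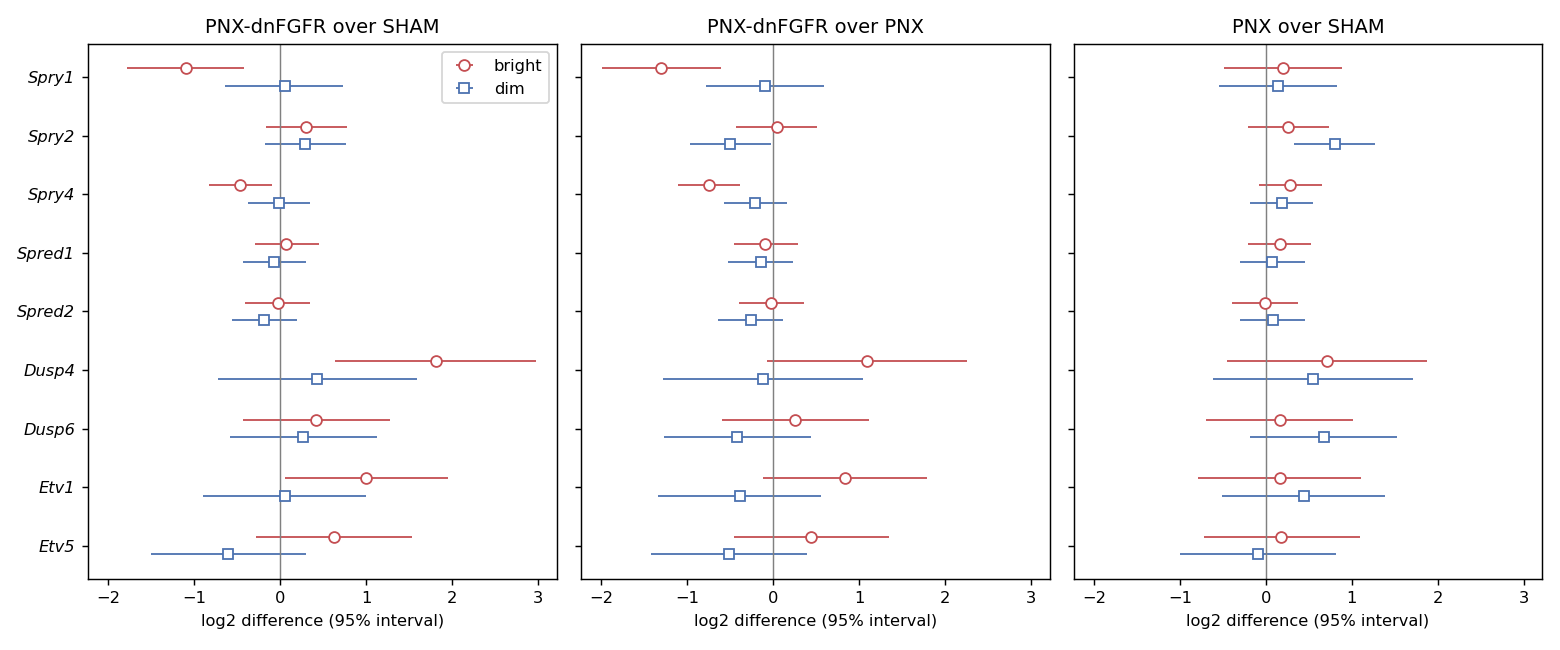
Log2 difference between operations (horizontal axis) for the 9 genes tested, in bright (red circles) and dim cells (blue squares), with 95% intervals. No symbol passes the threshold. In bright cells Spry1 lies at -1.10 for PNX-dnFGFR over SHAM and -1.30 for PNX-dnFGFR over PNX, while Dusp4 lies at 1.81 and 1.09.

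Against SHAM, bright PNX-dnFGFR cells again had negative values for Spry1 and Spry4 and positive ones for Dusp4, Etv1 and Etv5. This comparison shares its PNX-dnFGFR arrays with the last one. By limma 0 of 9 genes passed, against 5.20% of all genes, and 4 had an unadjusted p below 0.05, against 22.8%. The 576 genes behind that 5.20% depend on single arrays: 11 passed without bright SHAM replicate 2, 105 without bright SHAM replicate 1, 30 without bright PNX-dnFGFR replicate 2 and 124 without bright PNX-dnFGFR replicate 1. Without bright PNX replicate 1 or 2, which enter through the shared estimate of spread alone, 904 and 911 passed, and without dim PNX replicate 1 or 2, 351 and 348. Dusp4 was at 6.76 and 7.62 in PNX-dnFGFR and at 5.90 and 4.88 in SHAM, a difference of 1.81 ± 0.52 (3.5-fold, unadjusted p = 0.0064, adjusted p = 0.074). Spry1 had -1.10 ± 0.30 (2.15-fold, unadjusted p = 0.0053, adjusted p = 0.069). Etv1 had 1.0 ± 0.42 (adjusted p = 0.20), Etv5 0.62 ± 0.40 (0.40) and Spry4 -0.47 ± 0.16 (0.13). The other tested probe sets of Spry4 gave -0.51 (adjusted p = 0.17) and 0.05 (0.94), so its direction here depends on the probe set. The arrays did not overlap for 4 genes in the higher direction (Spry2, Dusp4, Etv1 and Etv5, against 32.0% of all genes) and for 2 in the lower (Spry1 and Spry4, against 27.6%). With a variance trend Spry1 passed (adjusted p = 0.049), and with either bright PNX array left out of the shared estimate of spread, Spry1 (0.033 and 0.032) and Dusp4 (0.034 and 0.033) passed.

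In bright cells PNX over SHAM gave values from -0.01 (Spred2) to 0.71 (Dusp4). None of the 9 genes passed or had an unadjusted p below 0.05 by limma, against 0.00903% and 8.24% of all genes. The largest were Dusp4 at 0.71 ± 0.52 (adjusted p = 0.76) and Spry4 at 0.28 ± 0.16 (0.70). Spry4 was the single gene of the 9 whose bright PNX arrays both lay above both SHAM arrays, against 21.2% of all genes.

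Dim cells showed 0 calls among the 9 genes in each comparison of operations. For PNX over SHAM, 0.0452% of all genes passed. By the probe sets that stand for the genes, Spry2 had the largest value of the 9. Its dim arrays were at 8.84 and 8.96 in PNX and at 7.83 and 8.39 in SHAM, a difference of 0.80 ± 0.21 (95% interval 0.33 to 1.27, 1.74-fold, unadjusted p = 0.0038, adjusted p = 0.19). It was the 1 gene of the 9 with an unadjusted p below 0.05, against 12.2% of all genes. Both PNX arrays lay above both SHAM arrays for Spry2, Dusp4 (0.55), Dusp6 (0.68) and Etv1 (0.44), which is 4 of 9 genes against 24.5% of all genes. Spred1 had 0.07, but its other probe sets gave 0.27 to 1.13 (adjusted p = 0.091 to 0.72). Spry4 had 0.19, and its other tested probe sets gave 0.42 (adjusted p = 0.42) and 0.85 (0.26).

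For PNX-dnFGFR over PNX in dim cells, all 9 values were negative, with a median of -0.26 against -0.02 over all genes. Dim PNX arrays enter this comparison and the last one, so a high value in them lowers 1 and raises the other. Spry2 had -0.50 ± 0.21 (unadjusted p = 0.038, adjusted p = 0.61), with 8.5 and 8.3 in PNX-dnFGFR and 8.84 and 8.96 in PNX. It was again the 1 gene with an unadjusted p below 0.05, against 7.79% of all genes, and 0 of all genes passed by limma. For 6 genes both PNX-dnFGFR arrays lay below both PNX arrays, against 21.9% of all genes: Spry2, Spry4, Spred1, Spred2, Dusp6 and Etv1. For PNX-dnFGFR over SHAM in dim cells 0 of the 9 genes had an unadjusted p below 0.05, against 9.52% of all genes, and 0.0181% of all genes passed. Etv5 had the largest value there, -0.61 ± 0.40 (adjusted p = 0.70), and Spred2 was the 1 gene without overlap in the lower direction, against 19.0% of all genes.

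As means over both gates, with 4 arrays per operation, 0 of 9 genes passed in any of the 3 comparisons, against 0.984% of all genes higher and 1.01% lower for PNX-dnFGFR over SHAM, 0 genes for PNX-dnFGFR over PNX and 0.144% for PNX over SHAM. For PNX over SHAM all 9 values were positive, with a median of 0.24 against 0.02 over all genes. Dusp4 had the largest value, 0.63 ± 0.37 (unadjusted p = 0.12, adjusted p = 0.44). Spry2 had the smallest p, with 0.53 ± 0.15 (unadjusted p = 0.0055, adjusted p = 0.14), and its other probe set gave 0.63 (adjusted p = 0.065). For PNX-dnFGFR over PNX, Spry4 had -0.48 ± 0.11 (unadjusted p = 0.0022, adjusted p = 0.19) and Spry1 -0.70 ± 0.22 (unadjusted p = 0.0097, adjusted p = 0.26). For PNX-dnFGFR over SHAM, Dusp4 had 1.12 ± 0.37 (unadjusted p = 0.013, adjusted p = 0.13) and Spry1 -0.53 ± 0.22 (0.036 and 0.20). In these means, 1 of the 9 genes had an unadjusted p below 0.05 for PNX over SHAM, against 16.1% of all genes. For PNX-dnFGFR over PNX it was 2, against 12.5%, and for PNX-dnFGFR over SHAM 2, against 21.6%.

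Whether an operation acted differently in the 2 gates was tested as a difference of effects, bright minus dim, and 0 of 9 genes passed in each of the 3 tests. Over all genes 0.126% passed for PNX-dnFGFR over SHAM and 0 genes for the other 2 tests. Spry1 had -1.15 ± 0.43 for PNX-dnFGFR over SHAM (unadjusted p = 0.025, adjusted p = 0.31) and -1.20 ± 0.43 for PNX-dnFGFR over PNX (0.020 and 0.53). Spry4 had -0.54 ± 0.23 for PNX-dnFGFR over PNX (0.042 and 0.59). These were the values of the 9 genes with an unadjusted p below 0.05: 1 for PNX-dnFGFR over SHAM, against 12.7% of all genes, 2 for PNX-dnFGFR over PNX, against 8.21%, and 0 for PNX over SHAM, against 4.47%. For PNX-dnFGFR over PNX, the other tested probe sets of Spry4 gave -0.74 (adjusted p = 0.48) and -0.04 (0.99). Dusp4 had 1.37 ± 0.73 (adjusted p = 0.48) and Etv5 1.23 ± 0.57 (0.41) for PNX-dnFGFR over SHAM. The Spry1 difference in bright cells is thus not shown to differ from that in dim cells.

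Among the 6 bright arrays, Dusp4, Dusp6 and Etv1 varied together. The lowest arrays for all 3 genes were PNX replicate 2 and SHAM replicate 2, and the highest was PNX-dnFGFR replicate 2. Over the 6 bright arrays Dusp4 and Etv1 had Pearson's r = 0.97 and Spearman's rho = 0.94 (exact permutation p = 0.0042 and 0.017, two-sided), and r = 0.92 without the 2 arrays farthest from the median of Dusp4. Dusp6 and Etv1 had r = 0.93 and rho = 0.89 on the bright arrays (exact permutation p = 0.011 and 0.033) and r = 0.95 and rho = 0.83 on the 6 dim arrays (exact permutation p = 0.015 and 0.058). Without the 2 farthest arrays r was 0.59 in bright and 0.54 in dim cells, so that relation rests largely on those arrays.

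On the bright arrays Spry1 had negative correlations with these 3 genes. It had r = -0.87 and rho = -0.94 with Etv1 (exact permutation p = 0.025 and 0.017; r = -0.58 without the 2 farthest arrays) and r = -0.85 and rho = -0.89 with Dusp4 (exact permutation p = 0.035 and 0.033; r = -0.69). With Dusp6 it had r = -0.63 and rho = -0.77 (exact permutation p = 0.19 and 0.10), and r = -0.14 without the 2 farthest arrays, so that value rests on those arrays. On the dim arrays r was positive, at 0.83 for Etv1, 0.72 for Dusp6 and 0.42 for Dusp4 (exact permutation p = 0.053, 0.11 and 0.43). In that order rho was 0.64, 0.35 and 0.06, and r without the 2 farthest arrays was 0.79, 0.73 and -0.33. The positive sign for Dusp4 thus rests on those arrays. On the bright arrays Spry1 had r = 0.84 and rho = 0.71 with Spry4 (exact permutation p = 0.043 and 0.14; r = 0.78). With 72 pairs computed over both gates, none passed after Benjamini-Hochberg adjustment, and the smallest adjusted p was 0.27 for Pearson's r and 0.40 for Spearman's rho. The arrays of an operation share their treatment, and with 2 arrays per operation no correlation within an operation can be given.

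Markers of other cell types also varied among the bright arrays, and the mesothelial and epithelial ones are given by array. On bright arrays the summed linear signal of the endothelial markers was 391 to 539 in PNX-dnFGFR, 492 to 533 in PNX and 607 to 683 in SHAM. The 6 mesothelial markers, of which 5 were tested, had 3 higher and 0 lower in bright cells. Of the 5, Wt1 (2.26 to 2.86) and Lrrn4 (3.51 to 4.64) lay below the filter on all dim arrays. The filter thus favours a difference in them. The summed linear signal of the 6 markers was 1368 to 3203 on bright and 320 to 747 on dim arrays. On bright arrays the sum was 2014 and 3007 in PNX-dnFGFR, 3203 and 1421 in PNX, and 1849 and 1368 in SHAM. It was highest on PNX replicate 1 and lowest on PNX replicate 2 and SHAM replicate 2, the arrays with the lowest Dusp4, Dusp6 and Etv1. Nkain4 lay at 10.02 to 11.13 on bright and 7.13 to 8.65 on dim arrays, while the defining marker Msln lay below the filter on all arrays, at 3.0 to 4.85. Epithelial markers had 0 of 10 genes called between gates, with sums of 4498 to 10614 on bright and 5140 to 11431 on dim arrays. On bright arrays the epithelial sum was 4498 and 6625 in PNX-dnFGFR, 6396 and 8322 in PNX, and 5691 and 10614 in SHAM. It was thus highest on SHAM replicate 2 and PNX replicate 2, the same 2 arrays on which Dusp4, Dusp6 and Etv1 were lowest. The part of any of these cell types in the results was not tested. Bright cells had 7 of 11 fibroblast markers higher and 3 lower, and 1 of 9 macrophage markers higher and 2 lower. They had 1 of 7 endothelial markers higher and 2 lower, and 0 of 4 lymphocyte markers higher and 2 lower. The endothelial marker Tek (3.72 to 4.69) and the fibroblast marker Lum (2.34 to 3.06) lay below the filter on all dim arrays. Both passed it on bright arrays alone, so the filter favours a difference in them too. Beside all these marker counts, 28.5% of all genes tested were higher in bright cells and 19.3% lower.

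**Figure D4:**
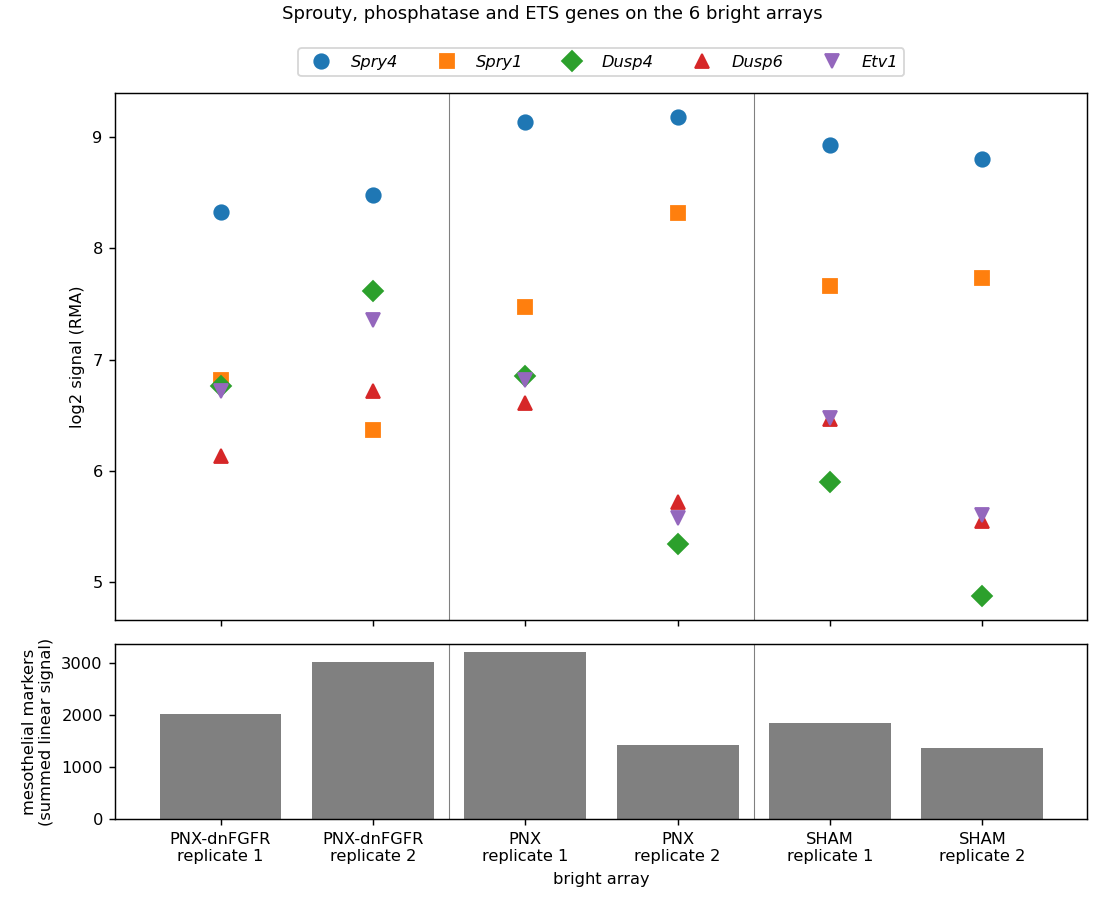
Upper panel: log2 signal (vertical axis) of 5 genes on the 6 bright arrays (horizontal axis). Lower panel: summed linear signal of 6 mesothelial markers on the same arrays. Dusp4, Dusp6 and Etv1 are lowest on PNX replicate 2 and SHAM replicate 2, where the marker sums are 1421 and 1368, and Spry1 is highest on PNX replicate 2, at 8.32.

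Genes whose pattern was most like that of each of the 9 were found by Pearson's r over the 12 arrays after the mean of each gate was subtracted, among 10640 genes, as a description with no test. For Dusp6 the closest gene was Etv1 (r = 0.898), also among the 10 genes. For Spry1 they were Svep1 and Peli2 (0.945 each), for Spry4 Paqr4 (0.941) and Cers4 (0.916), and for Spry2 Fbxo10 (0.925) and Vapa (0.908). For Dusp4 they were Lrmda (0.941) and Akr1b8 (0.938), for Etv1 Nxnl2 (0.966) and Tmem108 (0.939), and for Etv5 Dgkz (0.912) and Maz (0.909). The Spred genes had the weakest partners, Vwa5a (0.891) and Creb3l2 (0.888) for Spred1 and Ubash3b (0.864) and Creb3 (0.859) for Spred2. Nothing about shared control follows from such a rank.

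Of 7 other feedback genes of the path tested, 0 were called lower in bright cells as the mean over operations and 4 higher, while 19.3% of all genes were lower and 28.5% higher. Of these 4, Flrt1 and Flrt3 lay below the filter on all dim arrays and passed it on bright arrays alone, so the filter favours a difference in them. Flrt2, which encodes a membrane protein of a family that binds FGF receptors, had 10.11 in bright and 5.30 in dim cells (4.81 ± 0.26, adjusted p = 8.6e-07). Pebp1, which encodes a RAF inhibitor, had 10.42 and 9.90 (0.53 ± 0.07, adjusted p = 0.00028), while Flrt3 had 4.59 and 3.61 (adjusted p = 0.00028), both means below the filter's level. Of 8 other MAP kinase phosphatases, 4 were lower and 1 higher, with a median of -0.27. Dusp10, a phosphatase of JNK and p38, was lower, at -0.98 ± 0.12 (adjusted p = 0.00017), as was Dusp1 at -0.60 ± 0.09 (0.00048), while Dusp3 was higher, at 0.73 ± 0.10 (0.00026).

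ETS factors outside the PEA3 group and other ERK-induced genes were split or higher. Bright cells had 5 of 12 other ETS genes higher and 3 lower, with Elf4 at 2.0 ± 0.18 (adjusted p = 1.8e-05), Elk3 at 1.27 ± 0.15 (0.00013) and Ets1 at -1.52 ± 0.12 (1.1e-05). Of 15 other ERK-induced genes, 7 were higher and 0 lower, with a median of 0.57. Epha4, which encodes an ephrin receptor, had 7.07 in bright and 4.54 in dim cells (2.53 ± 0.10, adjusted p = 1.4e-07), Myc 7.88 and 5.12 (2.76 ± 0.24, 1.5e-05), and the early response gene Egr2 8.74 and 7.16 (1.59 ± 0.23, 0.00043). Epha4 lay below the filter on all dim arrays and passed it on bright arrays alone, and the dim mean of Myc lies just above the filter's level, so the sizes of those differences are uncertain. The background shares are again 28.5% of all genes higher and 19.3% lower.

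Of 14 genes of the relay itself, 4 were higher and 3 lower, while 28.5% of all genes were higher and 19.3% lower. The median was 0.01. Among those called were Ptpn11 at 0.52 ± 0.08 (adjusted p = 0.00053), Gab2 at 0.39 ± 0.08 (0.0040) and Araf at -0.62 ± 0.09 (0.00030). Bright cells had 3 of 10 FGF receptors and ligands higher and 5 lower, beside the same shares of all genes. Fgfr4 had 7.46 in bright and 11.64 in dim cells (-4.18 ± 0.15, adjusted p = 1.1e-07), Fgf18 7.75 and 4.74 (3.01 ± 0.19, 2.4e-06; its dim mean lies below the filter's level, so the size is uncertain) and Fgfr3 9.45 and 10.83 (-1.38 ± 0.17, 0.00018). Fgfr2 had 9.15 in bright and 7.71 in dim cells (1.45 ± 0.21, adjusted p = 0.00040), and whether its probe set also reads the dominant-negative transcript is not known here. With 1 array left out in 12 fits, the calls between gates of Egr1 (lost in 5), Braf (6), Dusp7 (7), Fgf10 (7), Etv6 (8) and Trib1 (10) were not stable, and no other call between gates in these lists was lost, though Flrt3 fell under the filter in 2 fits. Between operations, as means over both gates, the 1 call in these lists was Fgfr4, at 8.93 in PNX-dnFGFR and 9.87 in SHAM (-0.94 ± 0.19, adjusted p = 0.043), and it was lost in 10 of the 12 fits with 1 array left out (adjusted p = 0.026 to 0.15).

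In bright cells of PNX-dnFGFR over SHAM, where 5.20% of all genes passed, 2 of 15 other ERK-induced genes were higher and 1 lower. Epha4 had 7.82 in PNX-dnFGFR and 6.76 in SHAM (1.06 ± 0.17, adjusted p = 0.015), and Ier3, which encodes a small protein made early after ERK activation, had 10.47 and 9.0 (1.47 ± 0.33, 0.040). Phlda1, another gene that ERK induces, had 9.43 and 10.26 (-0.83 ± 0.13, adjusted p = 0.015). Of 10 FGF receptors and ligands, 5 were lower there and 0 higher: Fgfr4 (-1.90 ± 0.26, adjusted p = 0.011), Fgfr3 (-1.26 ± 0.30, 0.047), Fgf10 (-1.23 ± 0.30, 0.049), Fgf7 (-1.13 ± 0.25, 0.039) and Fgfr1 (-0.82 ± 0.16, 0.026). All 8 of these calls were lost without bright SHAM replicate 2 and without bright PNX-dnFGFR replicate 2. Those of Fgfr3, Fgf7 and Fgf10 were each lost in 10 of the 12 fits with 1 array left out, with adjusted p up to 0.26, and those of Ier3 in 7, of Epha4, Phlda1 and Fgfr1 in 4 and of Fgfr4 in 2. None of the other feedback genes, MAP kinase phosphatases, ETS factors or relay genes tested passed in this comparison.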

How the data were processed

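Gene expression was read from 12 Affymetrix mouse arrays of amplified RNA. The deposited table holds log2 signals that the authors made with RMA, per the submitters' processing notes, whose version the sources used here do not give. The values, 1.5 to 13.05, were used as deposited. From 45141 probe sets 104 controls were removed. GEO's platform annotation named 1 gene for 28898, several for 551 and none for 15588. For 28689 of the probe sets with 1 gene, the symbol was taken from RefSeq by Entrez identifier, whether or not it differed. Genes named by no single-gene probe set were not analysed here. Levels of different genes come from different probes and were not compared.

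With limma 3.58.1 (R 4.3.3), all 12 arrays were fitted together as 6 group means (residual df 6, prior df 3.31, median residual SD 0.199 log2). Each adjusted p of a gene comes from limma's moderated test with Benjamini-Hochberg adjustment over the 11073 genes of 1 of 16 comparisons, read at a threshold of 0.05. The number of arrays limits the precision. No animal was modelled as shared by the gates. If bright and dim cells were sorted from the same animals, p-values of means over both gates are too small. The fit was tested on simulated data. Other pathway genes were named by list, up to 3 called genes per list in ascending order of adjusted p, with Fgfr2 and Pdgfra always named. Marker genes, Flrt1, genes whose calls were lost with an array left out, and all called genes of PNX-dnFGFR over SHAM in bright cells were named after their values were seen. Members, lists and tests were chosen with earlier results of these data known. The alternatives were other filters, normalization, probe sets, variance trend, arrays in the fit, replicate blocks, values below the filter set to it, and each array left out. Whether replicate numbers pair the samples is not known here. Deviations of bright and dim arrays of the same number correlated at 0.13 in PNX-dnFGFR, 0 in PNX and 0.01 in SHAM. Over all 15 pairs of groups, most of them from different operations, such correlations ran from -0.19 to 0.35. With so few arrays per group, these values cannot tell whether bright and dim cells came from the same animals.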

Additional observations from a re-analysis of the deposited data

How the results depend on the processing

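The 9 differences called for these genes kept direction and call in 190 alternatives, lost the call in 7 (those of Dusp4 and Dusp6 given above) and reversed in 0. For bright over dim as the mean of 3 operations, the count of 4 lay between 3 and 5 with single arrays left out and was 6 with another round of quantile normalization. The count for bright over dim in SHAM, 1, was 2 with the stricter filter and 2 with a variance trend, and 1 to 4 with single arrays left out, the 4 without bright PNX replicate 1 or 2. That for bright over dim in PNX, 2, ran from 1 (without dim PNX replicate 1) to 4 (without bright PNX replicate 1). For PNX-dnFGFR over SHAM in bright cells the count of 0 was 1 with a variance trend, 1 when the fit held no other groups, and 0 to 2 with single arrays left out. For PNX-dnFGFR over PNX in bright cells it was 0 to 1. The cause was not tested. Of 3035 alternatives to the 135 differences not called, 41 were called and 160 turned the sign, 1 of them called (Spred1 by another probe set in SHAM). With the replicate number as a block the count of the mean over operations was 4, and with bright and dim arrays paired 5, Spred2 being added at an adjusted p of 0.048. Neither block changed another count.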
